A study of Rattus norvegicus with 9 samples.

Results

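The livers of rats were followed by bulk RNA-seq for 10 apolipoprotein genes, *Apoa1*, *Apoa2*, *Apoa4*, *Apoa5*, *Apob*, *Apoc1*, *Apoc3*, *Apoe*, *Apoh* and *Apom*. They were taken by symbol from the deposited gene tables, which gave 10 of 32883 rows. A filter on low counts kept 14089 genes, among them 9 of the 10 members, all but *Apoc1*. The 9 livers came from 3 Normal rats, 3 rats with acute-on-chronic liver failure (ACLF) of the Empty group and 3 ACLF rats of the UTOpiA group. The methods state male Sprague-Dawley rats of 8 to 11 weeks. ACLF was produced by 21 days of bile duct ligation and an intraperitoneal dose of lipopolysaccharide (LPS) at 0.25 mg/kg, which both ACLF groups received. One hour after LPS, both ACLF groups were connected for 2 h to an extracorporeal circuit for whole blood, which in the Empty group held neither cells nor adsorption column. In the UTOpiA group the circuit held a column that removes granulocytes and monocytes, in tandem with encapsulated hepatocyte-like cells derived from gene-edited human induced pluripotent stem cells. Livers were collected 24 h after LPS from ACLF rats alive at that time, whereas the Normal rats are labelled only as normal, so ligation, LPS and circulation cannot be told apart against Normal.

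Apolipoproteins are the protein part of the particles that carry cholesterol, triglyceride and phospholipid in blood, and the liver makes most of them. Apolipoprotein B is the scaffold of very low density lipoprotein (VLDL), and apolipoproteins A-I and A-II are the main proteins of high density lipoprotein (HDL). The smaller exchangeable members regulate lipases and receptors: C-III slows the clearance of triglyceride, A-V speeds it, and E is the ligand that returns remnants to the liver. Apolipoprotein M carries sphingosine 1-phosphate on HDL, and apolipoprotein H, also called beta-2 glycoprotein I, binds anionic phospholipid.

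Total counts ran from 14241172 to 17321677 per library. Levels are given as TPM, a unit scaled for transcript length and library depth. Albumin alone held 114722 to 127172 TPM in Normal livers and 12840 to 33608 TPM in ACLF livers, so TPM leaves more room for other transcripts in ACLF. The fitted log2 fold changes were therefore taken from counts scaled by the trimmed mean of M values (TMM). With library totals in place of TMM, the median of all tested genes moved from 0.04 to 0.60 (log2) between Empty and Normal, from 0.05 to 0.42 between UTOpiA and Normal and from 0.00 to -0.18 between UTOpiA and Empty. Calls required more than a 2-fold change with an adjusted p below 0.05 in the quasi-likelihood test of edgeR.

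In the ACLF livers of the Empty group, 5 members were called lower than in Normal livers and 0 higher. They were *Apoa1* and *Apoa2* of HDL, *Apoa4*, the lipase inhibitor *Apoc3* and *Apom*. The background was that 11.1% of tested genes were called lower and 20.7% higher. *Apoe*, *Apoh*, *Apob* and *Apoa5* did not pass both limits. The median log2 fold change of the 9 tested members was -1.04, beside 0.04 for all tested genes. On TPM, 6 members were below Normal without overlap of the groups and 1, *Apoa5*, was above, where 12.8% of tested genes lay below and 53.4% lay above without overlap.

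Without overlap from Normal in either ACLF group, *Apoa5* and *Apoa4* stood on opposite sides of it, although they are neighbours in 1 gene cluster. Their promoter windows, from 250 bases before to 50 after an annotated start, are printed for that reason, with that of *Apom*, the member with the lowest adjusted p between Empty and Normal. The sequences are from RefSeq on GRCr8, a build other than that of the deposited tables, and 6 of the 10 members had a window. Capitals mark matches on either strand to the letters searched. These were CAAAGTCCA and CAAAGGTCA for HNF4A. For HNF1 only a half-site, GTTAAT, was searched. The TATA box was searched as TATAAA. For C/EBP the letters were TTGCGCAA and TTGCGAAA. No marked matches overlap.
Apoa4, chr8:55435529-55435828, plus strand: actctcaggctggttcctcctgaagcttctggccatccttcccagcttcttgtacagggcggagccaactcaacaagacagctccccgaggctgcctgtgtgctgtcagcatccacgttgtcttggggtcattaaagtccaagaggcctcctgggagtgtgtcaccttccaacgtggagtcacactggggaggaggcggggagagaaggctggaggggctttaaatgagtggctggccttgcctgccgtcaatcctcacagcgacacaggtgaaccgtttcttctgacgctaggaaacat
Apoa5, chr8:55457621-55457920, plus strand: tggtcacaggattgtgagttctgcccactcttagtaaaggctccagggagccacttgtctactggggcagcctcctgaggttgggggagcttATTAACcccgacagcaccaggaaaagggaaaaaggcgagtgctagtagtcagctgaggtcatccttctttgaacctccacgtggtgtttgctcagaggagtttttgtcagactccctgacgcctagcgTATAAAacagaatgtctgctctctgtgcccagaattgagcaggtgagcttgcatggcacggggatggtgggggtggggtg
Apom, chr20:3695368-3695667, plus strand: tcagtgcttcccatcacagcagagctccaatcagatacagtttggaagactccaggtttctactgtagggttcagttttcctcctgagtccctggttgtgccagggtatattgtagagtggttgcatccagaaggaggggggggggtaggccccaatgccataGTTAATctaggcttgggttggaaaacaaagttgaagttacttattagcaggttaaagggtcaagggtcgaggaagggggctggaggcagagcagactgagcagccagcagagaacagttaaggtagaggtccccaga
In the *Apoa5* window, a TATA box began at -30 and an HNF1 half-site, on the opposite strand, at -158 from the start. *Apoa5* has a second annotated start, whose window (chr8:55457775-55458074) is not printed: there the same TATA letters begin at -184, and the HNF1 half-site falls outside. The *Apom* window held 1 HNF1 half-site, at -87. The *Apoa4* window held 0 matches to these letters. The windows of *Apoc1*, *Apoe* and *Apoh* are not printed either. Those of *Apoc1* each held 1 HNF1 half-site, at -122 and -207, and those of *Apoe* and *Apoh* held 0 matches. Of all 33469 RefSeq windows of this length, 14.2% held the TATA box, 7.45% the HNF1 half-site, 0.391% and 0.424% the HNF4A letters in the order given, and 0.170% and 0.209% the C/EBP letters.

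**Figure D1:**
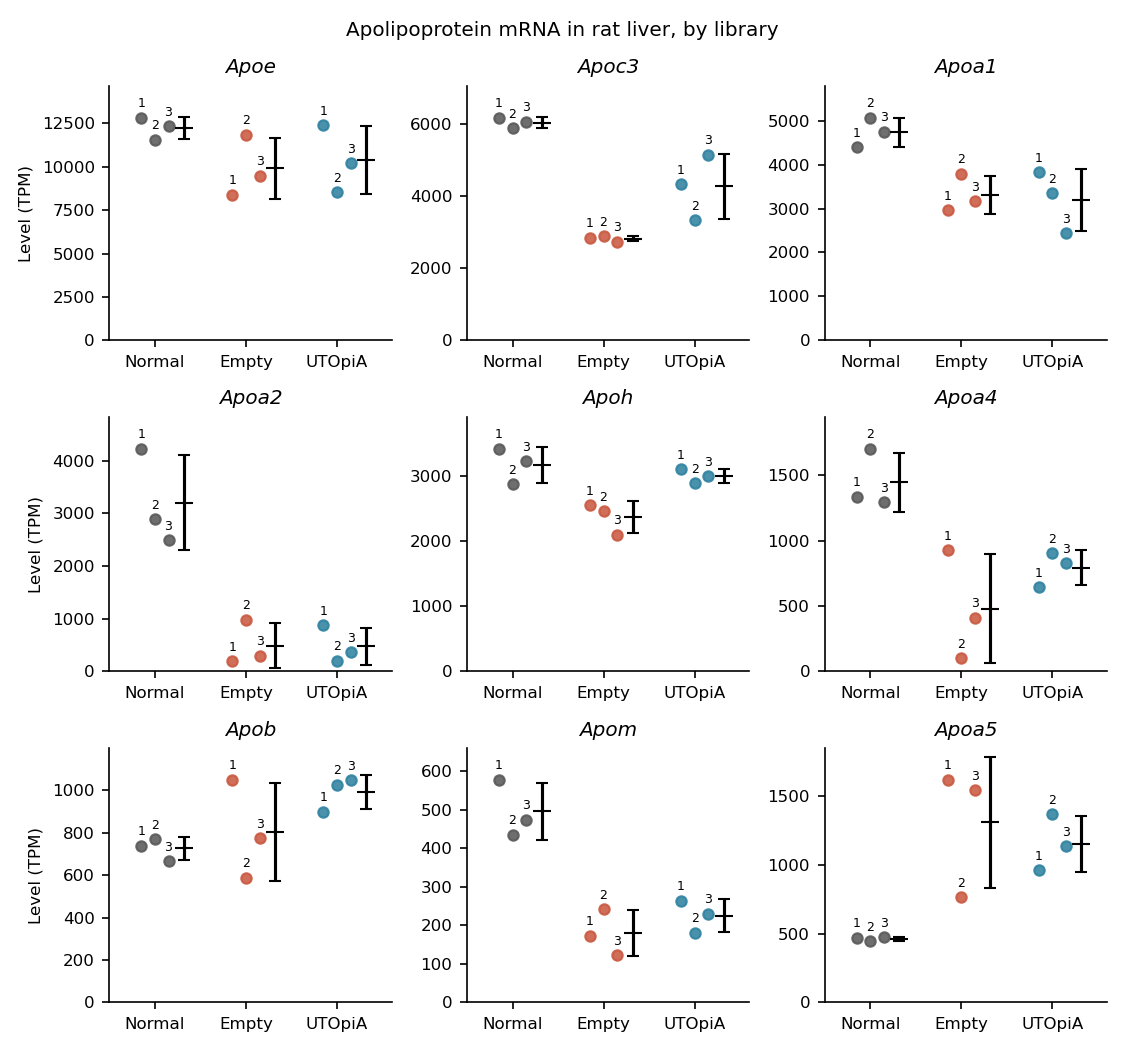
Level in TPM (linear axis from 0) of the 9 apolipoproteins with reads, in each of the 9 livers. Points are livers with their replicate number, and the bar beside them is the mean ± SD of 3 livers. Apoa2 in every ACLF liver was at or below 981 TPM, against 2497 or more in Normal livers, and Apoa5 in every ACLF liver was at or above 763 TPM, against 472 or less.

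*Apoa1*, which encodes the structural protein of HDL and activates the enzyme LCAT, lies at chr8:50525091-50526875 (plus strand, rn6). The Normal livers held 4392, 5063 and 4746 TPM, the Empty livers 2958, 3790 and 3166, and the UTOpiA livers 3825, 3345 and 2436. All 6 ACLF livers were below all 3 Normal livers, and the ACLF groups overlapped. The log2 fold change was -1.04 ± 0.24 (SE, n = 3 per group, edgeR adjusted p = 0.00642) between Empty and Normal. Between UTOpiA and Normal it was -0.89 ± 0.24 (edgeR adjusted p = 0.0162), short of a 2-fold change, which it passed without UTOpiA replicate 1 (-1.03). The call was lost with library totals (-0.49, adjusted p = 0.0858), under each limma fit on log2 TPM (-0.52), with a filter of at least 10 counts in every library (-0.93, adjusted p = 0.0101) and without Empty replicate 3 (-0.96). A gene model on the opposite strand, AABR07070085.1, lies inside *Apoa1* and drew 28.4 to 32.2% as many reads in every library, and reads of the pair cannot be told apart. With those reads summed into *Apoa1*, it was still called lower between Empty and Normal.

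*Apoa2*, which encodes the second protein of HDL (chr13:89597138-89598802, plus strand), had the largest fitted difference from Normal among the members in both ACLF groups. Normal livers held 4228, 2895 and 2497 TPM. Empty livers held 198, 981 and 297 TPM, and UTOpiA livers 874, 205 and 360. Every ACLF liver was under every Normal liver, yet the ACLF livers differed among themselves by 4.94 times. The fitted level was 0.107 times Normal in Empty (log2 fold change -3.22 ± 0.74, edgeR adjusted p = 0.00685) and 0.123 times Normal in UTOpiA (-3.03 ± 0.73, adjusted p = 0.0114). These sizes rested partly on 1 liver in each group, since leaving out Empty replicate 2 gave a log2 fold change of -4.24 in Empty, and leaving out UTOpiA replicate 1 gave -3.71 in UTOpiA. Between UTOpiA and Empty the log2 difference was 0.19, with a 95% confidence interval of -1.35 to 1.73, so changes of several-fold in either direction lie inside it. Leaving out 1 library moved that difference between -0.48 and 1.21.

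*Apom*, at chr20:5120474-5123073 (minus strand), had the lowest mean of the tested members in both ACLF groups. Normal livers held 578, 435 and 475 TPM, Empty livers 173, 242 and 123, and UTOpiA livers 264, 181 and 230. No ACLF liver reached the lowest Normal liver. The log2 fold change from Normal was -1.97 ± 0.33 in Empty (edgeR adjusted p = 0.0012) and -1.42 ± 0.32 in UTOpiA (adjusted p = 0.00741). *Apom*, *Apoa2* and *Apoc3* were called lower between Empty and Normal under every one of the 20 alternative settings, and *Apom* and *Apoa2* also between UTOpiA and Normal.

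*Apoc3*, the inhibitor of triglyceride clearance (chr8:50529318-50531498, minus strand), was the member whose ACLF groups were most clearly apart. Normal livers held 6159, 5868 and 6054 TPM. The Empty livers lay close together at 2844, 2875 and 2732 TPM, and the UTOpiA livers lay between both at 4319, 3323 and 5137. None of the 3 groups overlapped. *Apoc3* was lower in Empty than in Normal, with a log2 fold change of -1.61 ± 0.31 (edgeR adjusted p = 0.00268). In UTOpiA the difference from Normal was -0.76 ± 0.31 (adjusted p = 0.077), and without UTOpiA replicate 3 it was -1.11 and passed both limits (adjusted p = 0.0152). The difference of UTOpiA from Empty was 0.86 ± 0.31, with an unadjusted p of 0.0203 that did not pass over all genes (edgeR adjusted p = 0.412). Over the 20 alternative settings that difference ran from 0.51 to 1.11 and was never called.

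*Apoa4*, made mainly by the gut in humans but also by the rat liver, encodes a protein of chylomicrons and HDL (chr8:50537009-50539376, plus strand). Normal livers held 1338, 1704 and 1297 TPM. Empty livers ranged widely, at 930, 100.3 and 412 TPM, and UTOpiA livers held 643, 905 and 829. All ACLF livers were below all Normal livers, while the range of Empty enclosed that of UTOpiA. The log2 fold change between Empty and Normal was -2.08 ± 0.66 (edgeR adjusted p = 0.0277). It lost its call with library totals (-1.55, adjusted p = 0.0621), with only the Empty and Normal livers in the fit (-2.05, adjusted p = 0.0589), without Empty replicate 3 (-1.93, adjusted p = 0.0874) and without any 1 of the Normal livers (adjusted p of 0.053 to 0.0697). Without Empty replicate 1 the value was -3.10 and was called. In UTOpiA it was -1.17 ± 0.64 (adjusted p = 0.177), and without Empty replicate 2, whose spread enters the shared estimate, the same -1.17 passed (adjusted p = 0.0249), as did -1.16 with only the UTOpiA and Normal livers in the fit (adjusted p = 0.00734). The model AABR07073400.1, on the opposite strand inside *Apoa4*, drew 54.1 to 59.7% as many reads as *Apoa4*, and these reads likewise cannot be told apart.

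*Apoa5*, which encodes the activator of triglyceride clearance (chr8:50559126-50561736, plus strand), was the member that stood above Normal in both ACLF groups without overlap. Normal livers held 470, 444 and 472 TPM, Empty livers 1617, 763 and 1543, and UTOpiA livers 959, 1365 and 1134. Every ACLF liver exceeded every Normal liver. Against Normal, *Apoa5* rose in UTOpiA with a log2 fold change of 1.01 ± 0.31 (edgeR adjusted p = 0.0289). Between Empty and Normal it was 0.98 ± 0.31 (adjusted p = 0.0266), just short of the 2-fold limit. Both values sit on that limit: on library totals the value in Empty was 1.54 and was called (adjusted p = 0.00206), as it was without Empty replicate 2 (1.25, adjusted p = 0.00302). The call in UTOpiA was lost without any 1 of the Normal livers, without UTOpiA replicate 2 or without UTOpiA replicate 3 (adjusted p of 0.0531 to 0.0954). Its direction was the same under all these settings.

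*Apob*, the scaffold of VLDL (chr6:33176778-33224997, plus strand), was not called in any comparison. Normal livers held 740, 771 and 667 TPM, Empty livers 1050, 588 and 775, and UTOpiA livers 899.7, 1027 and 1049. The UTOpiA livers lay above the Normal livers, and the Empty livers spread across both. The log2 fold change was -0.36 ± 0.33 between Empty and Normal (edgeR adjusted p = 0.388), and with library totals it turned to 0.18. The exact permutation p of its TPM was 0.7. In UTOpiA against Normal it was 0.16 ± 0.33 (adjusted p = 0.726).

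*Apoe*, the ligand for remnant receptors (chr1:80612895-80617057, minus strand), was the most abundant member in all 3 groups. Normal livers held 12820, 11567 and 12322 TPM, Empty livers 8389, 11857 and 9496, and UTOpiA livers 12407, 8533 and 10219. The highest ACLF livers reached into the Normal range in both groups. The log2 fold change was -0.82 ± 0.32 between Empty and Normal (edgeR adjusted p = 0.0579) and -0.52 ± 0.32 between UTOpiA and Normal (adjusted p = 0.22). *Apoe* is also made by macrophages, and 5 of 8 macrophage markers were called higher in Empty, beside 20.7% of all tested genes (summed level 438 to 859 TPM, against 295 to 346 TPM in Normal and 368 to 789 TPM in UTOpiA). Their part in the *Apoe* level was not tested.

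*Apoh* (chr10:96639924-96653938, plus strand) kept a narrow range. Normal livers held 3411, 2871 and 3221 TPM, Empty livers 2550, 2452 and 2096, and UTOpiA livers 3101, 2883 and 2995. The Empty livers were below all the others, and the UTOpiA livers fell inside the Normal range. The log2 fold change between Empty and Normal was -0.93 ± 0.26 (edgeR adjusted p = 0.016), under the 2-fold limit, which it passed without Empty replicate 1 (-1.04) or without Normal replicate 2 (-1.02). For UTOpiA against Normal it was -0.38 ± 0.26 (adjusted p = 0.278).

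*Apoc1*, an inhibitor of lipoprotein uptake and of the cholesteryl ester transfer protein, had a row by symbol on the scaffold KL568199.1 with 0 counts in all 9 libraries, which allows up to 3 counts in each. A separate row, NEWGENE_2134 (chr1:80606638-80609921, minus strand), carries NCBI gene number 25292, which the RefSeq table gives to *Apoc1*. It held 5411, 4377 and 4308 TPM in Normal, 1543, 2728 and 1531 in Empty, and 2915, 1595 and 2885 in UTOpiA livers, so all ACLF livers were below all Normal livers. Its log2 fold change was -1.79 ± 0.40 between Empty and Normal (edgeR adjusted p = 0.00494) and -1.18 ± 0.39 between UTOpiA and Normal (adjusted p = 0.0365). The latter was lost under 10 of 20 settings, among them the replicate block (adjusted p = 0.0764) and leaving out any 1 of the Normal livers, UTOpiA replicate 1 or UTOpiA replicate 2 (adjusted p of 0.0679 to 0.104). Counted in place of the empty row, it would bring the members called lower to 6 in Empty and 3 in UTOpiA.

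**Figure D2:**
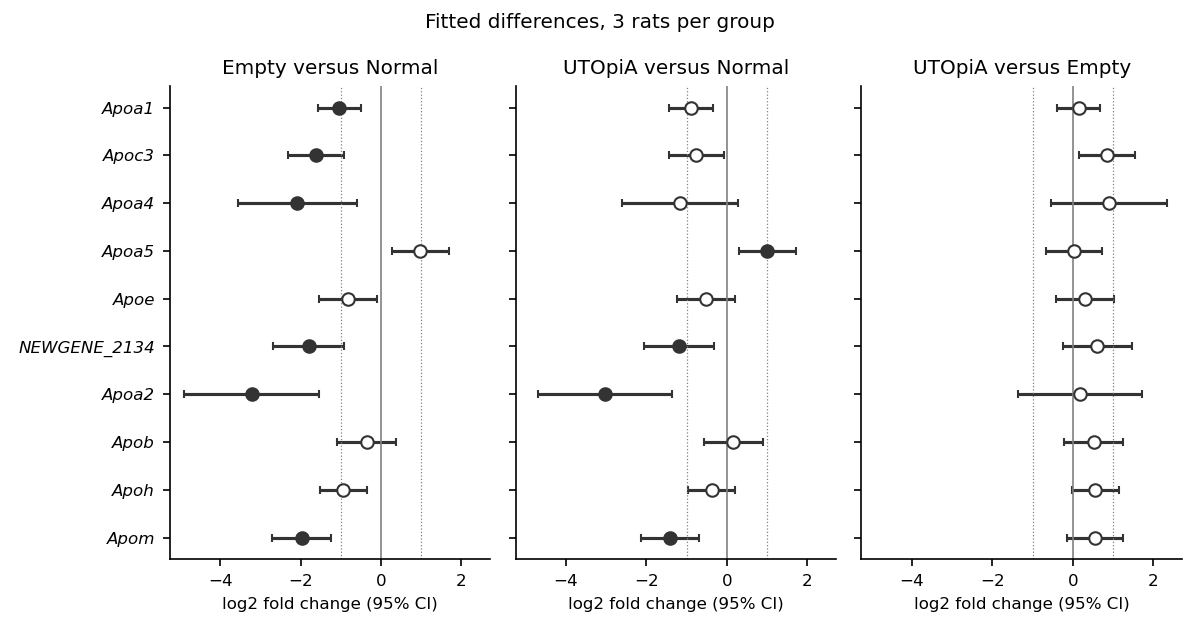
Log2 fold change (TMM-scaled counts, edgeR) of the 9 tested members and of NEWGENE_2134, the row with the NCBI number of Apoc1, in the 3 comparisons. Bars are 95% confidence intervals, filled points passed an adjusted p of 0.05 and a 2-fold change, and dotted lines mark 2-fold. All filled points but that of Apoa5 between UTOpiA and Normal lie below 0, and no point is filled between UTOpiA and Empty.

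Between UTOpiA and Normal, 2 members were called lower (*Apoa2* and *Apom*) and 1 higher (*Apoa5*), where 6.81% of tested genes were called lower and 18.2% higher. The median of the 9 tested members was -0.76, beside 0.05 for all tested genes. Because both ACLF groups were set against the same Normal livers, the counts of 5 and 2 members lower are not independent, and their difference is tested only by the direct comparison.

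In that direct comparison of UTOpiA with Empty, the question was whether the therapy changed the apolipoprotein transcripts of the ACLF liver. The circuits differed by both the column and the cells, so these cannot be told apart here. By edgeR, 0 of 9 tested members were called higher and 0 lower, as were 0% of all tested genes in either direction, and DESeq2 and limma also called 0 members. The 0% held for edgeR with all 9 libraries: at the same limits DESeq2 called 51 genes higher and 74 lower, and edgeR called 26 higher and 22 lower without Empty replicate 2 and 32 higher and 17 lower without UTOpiA replicate 2, with 0 members among them. At an unadjusted p under 0.05, 1 member was higher, *Apoc3*, where 5.77% of tested genes were. On TPM, *Apoc3* and *Apoh* were higher in UTOpiA without overlap, 2 of 9, where 2.43% of tested genes were. Their mean levels were 1.51 and 1.26 times those of Empty, and the exact permutation p was 0.1 for each, the smallest that 3 livers against 3 can give. The *Apoh* log2 difference was 0.56 ± 0.26 (95% confidence interval -0.03 to 1.15, edgeR adjusted p = 0.503).

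All 9 tested members had a fitted log2 difference above 0 between UTOpiA and Empty, with a median of 0.52 beside 0.00 for all tested genes, but for *Apoa1*, *Apoa2* and *Apoa5* the sign turned with library totals (-0.036, -0.0067 and -0.18). *Apoa4* had the largest value, 0.91 ± 0.64, with an interval of -0.53 to 2.35. Over the 20 alternative settings that value ran from 0.43 to 1.93. *Apom* stood at 0.55 (-0.15 to 1.26), *Apob* at 0.52 (-0.22 to 1.26) and *Apoe* at 0.30 (-0.42 to 1.02). *Apoa1* and *Apoa5* were nearest to 0, at 0.14 (-0.39 to 0.68) and 0.03 (-0.67 to 0.72). For 6 of the 8 other members the interval holds a difference as large as that of *Apoc3*.

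The ACLF livers differed among themselves in ways that the groups did not follow. *Apoa2* was highest in Empty replicate 2 and UTOpiA replicate 1, and the same 2 livers were the lowest of the 6 for *Apoa5*. Albumin was also highest in them, at 33608 and 29936 TPM. *Apoa4* was lowest in Empty replicate 2, at 100.3 TPM, which is 9.27 times below the highest ACLF liver. Within the Empty group the coefficient of variation of TPM was 86.5% for *Apoa2* and 87.1% for *Apoa4*, but 2.68% for *Apoc3* and 10.1% for *Apoh*. In Normal livers it ran from 2.44% for *Apoc3* to 28.3% for *Apoa2*.

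The members' order by level also shifted. In Normal livers the mean levels ran *Apoe* (12236 TPM), *Apoc3* (6027), *Apoa1* (4734), *Apoa2* (3207), *Apoh* (3168), *Apoa4* (1447), *Apob* (726), *Apom* (496) and *Apoa5* (462). Neighbours whose 3 values overlapped were *Apoa2* with *Apoh*, and *Apom* with *Apoa5*. In the Empty group *Apoe* (9914) was followed by *Apoa1* (3305), *Apoc3* (2817) and *Apoh* (2366), without overlap. *Apoa5* came next at 1308 TPM, ahead of *Apob* (804), *Apoa2* (492), *Apoa4* (481) and *Apom* (179), each overlapping with its neighbour. In the UTOpiA group the order from the top was *Apoe* (10386), *Apoc3* (4259), *Apoa1* (3202), *Apoh* (2993), *Apoa5* (1153), *Apob* (992), *Apoa4* (792), *Apoa2* (480) and *Apom* (225), and only *Apoe* and *Apoc3*, and *Apoh* and *Apoa5*, were neighbours without overlap.

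Since TPM sums are fixed, each member was also expressed as a share of the summed level of the members, which does not depend on the scaling between libraries. The members together held 32501 ± 1417 TPM in Normal, 21666 ± 1717 in Empty and 24483 ± 2764 in UTOpiA livers (SD, n = 3). Within that sum, 3 members took a lower share in Empty than in Normal without overlap (*Apoa2*, *Apoc3* and *Apom*) and 4 a higher share (*Apoa5*, *Apob*, *Apoe* and *Apoh*). *Apoa2* went from 9.80 ± 2.33% in Normal to 2.18 ± 1.72% in Empty and 1.87 ± 1.18% in UTOpiA. *Apoa5* went from 1.42 ± 0.06% to 6.17 ± 2.55% and 4.81 ± 1.39%. *Apoc3* held 18.6 ± 0.51%, 13.0 ± 0.80% and 17.4 ± 3.20%, and was the 1 member whose share was higher in UTOpiA than in Empty without overlap. *Apoe* took the largest share throughout, at 37.6 ± 1.12% in Normal, 45.6 ± 4.83% in Empty and 42.2 ± 3.14% in UTOpiA. *Apoa1* kept 14.6 ± 1.60%, 15.2 ± 0.88% and 13.1 ± 2.80%, with overlap between all groups. These shares were described without a test, and a larger share of one member lowers those of the others.

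**Figure D3:**
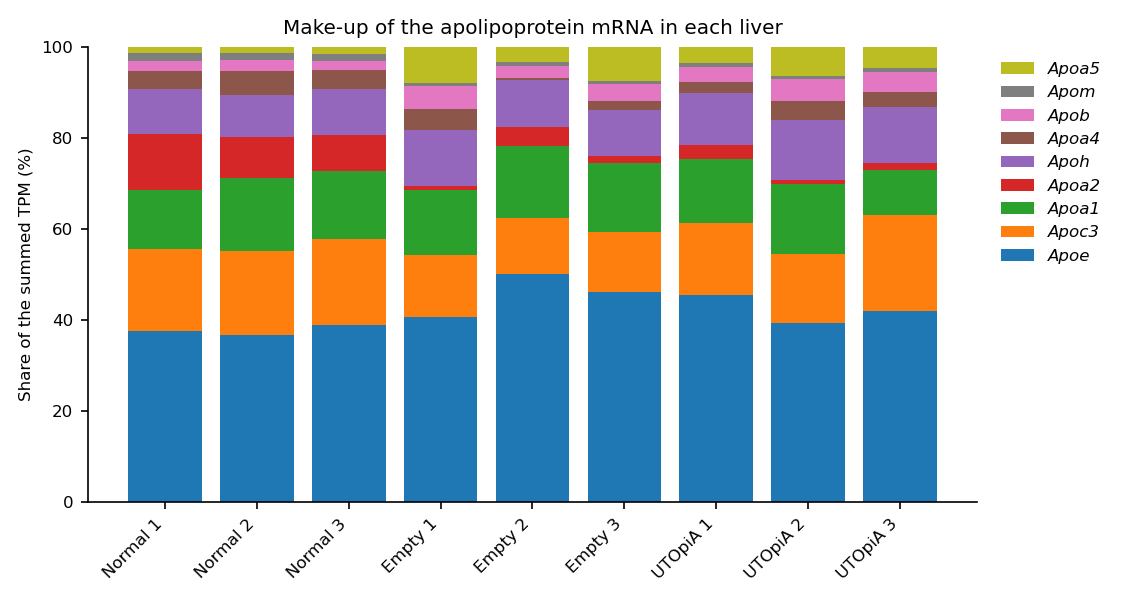
Share (%) of each of the 9 apolipoproteins in their summed TPM, 1 bar per liver, 3 livers per group. Apoa2 held 7.86 to 12.4% in Normal and 0.94 to 4.15% in ACLF livers, and Apoa5 1.38 to 1.49% and 3.23 to 7.81%.

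On chromosome 8, 4 of the members lie within 36.6 kb, in the order *Apoa1*, *Apoc3*, *Apoa4* and *Apoa5*. Between Empty and Normal the first 3 were called lower, while *Apoa5*, whose start lies 34.0 kb from that of *Apoa1*, was at 0.98. The next genes, *Zpr1* and *Bud13*, had log2 fold changes of 0.24 ± 0.14 (edgeR adjusted p = 0.177) and 0.75 ± 0.17 (adjusted p = 0.006), and *Sik3* on the other side was at -0.47 ± 0.13 (adjusted p = 0.0174). None of these 3 passed the 2-fold limit. Farther out, AC135409.1 was at -0.12 ± 0.23 (adjusted p = 0.701), and LOC500990 had at most 1 count in a library and was not tested. On chromosome 1 *Apoe* lies near *Apoc2*, *Apoc4* and NEWGENE_2134, and these differed among themselves. *Apoc2*, the activator of lipoprotein lipase, fell (-2.597 ± 0.32, adjusted p = 0.000319), whereas *Apoc4* was at -0.33 ± 0.25 (adjusted p = 0.295) and the mitochondrial import gene *Tomm40* at -0.71 ± 0.16 (adjusted p = 0.00484). *Bcam*, an adhesion molecule of the laminin-binding kind, was called higher (3.25 ± 0.33, adjusted p = 0.000139). *Clptm1* was at -0.28 ± 0.16 (adjusted p = 0.172). *Nectin2*, another adhesion molecule, was at 0.69 ± 0.30 in Empty (adjusted p = 0.087) and was called higher in UTOpiA against Normal (1.20 ± 0.31, edgeR adjusted p = 0.013).

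**Figure D4:**
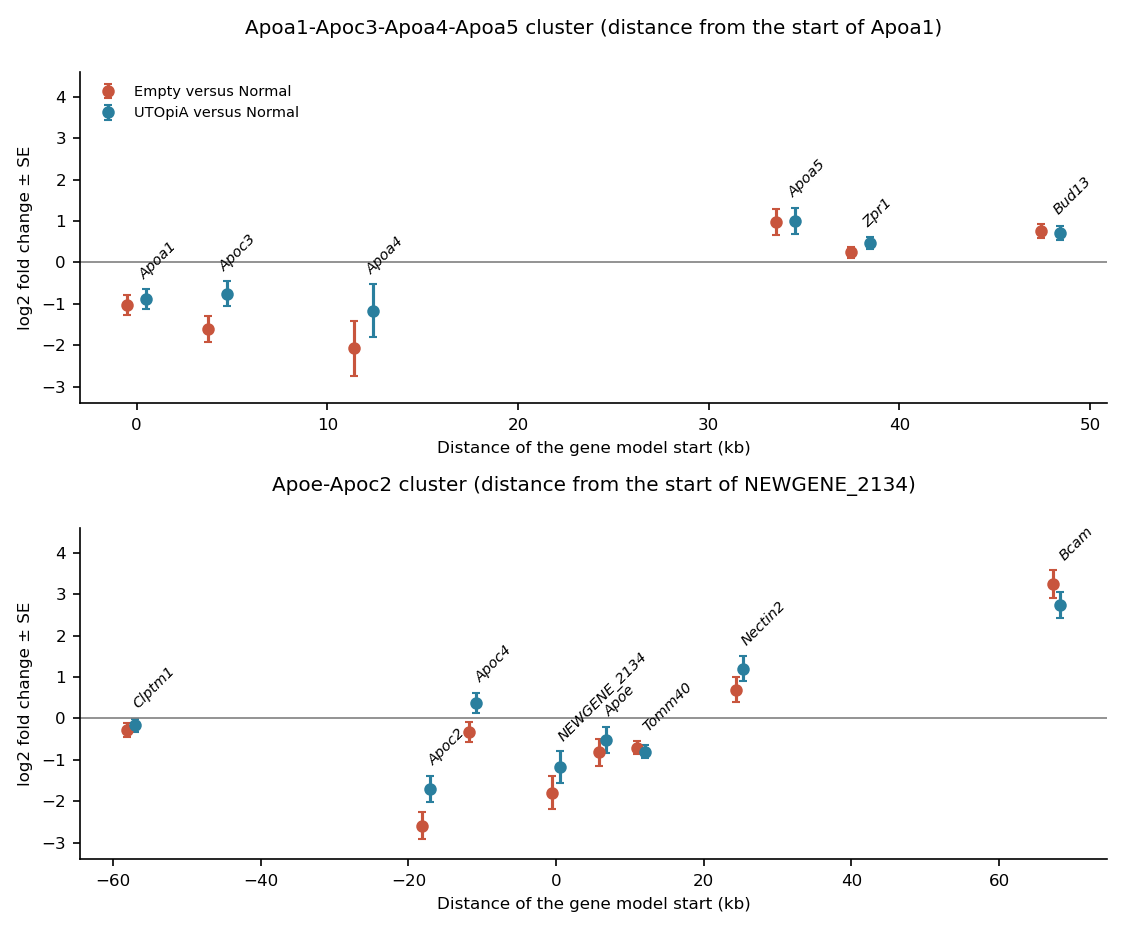
Log2 fold change ± SE (edgeR, 3 livers per group) of tested genes in and around the 2 apolipoprotein clusters, against the distance of each gene model's start from the first member (kb). Sik3, AC135409.1 and the opposite-strand models AABR07070085.1 and AABR07073400.1 are not drawn. In the upper panel the first 3 genes lie below 0 and Apoa5, 34.0 kb away, lies above it.

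Other apolipoproteins, outside the 10, went in both directions. Of 8 tested, 3 fell and 1 rose between Empty and Normal, with a median log2 fold change of -0.27. The counts of this list and of those after it stand beside the 20.7% of all tested genes called higher and 11.1% called lower in that comparison. *Apof*, an inhibitor of lipid transfer, fell by 3.59 on the log2 scale (± 0.97, edgeR adjusted p = 0.0153), from 110.1 to 279 TPM in Normal to 3.10 to 57.0 TPM in Empty. That call was lost without Empty replicate 3 (-3.33, adjusted p = 0.0529) and with no filter on counts (adjusted p = 0.0511), and without Empty replicate 2 the value was -5.02. Beside *Apoc2*, *Apon* fell by 2.02 (± 0.38, adjusted p = 0.00268), or by 2.63 without Empty replicate 2. *Clu*, clusterin or apolipoprotein J, a secreted chaperone, rose from 576 to 653 TPM in Normal to 3215 to 4592 TPM in Empty (log2 fold change 2.08 ± 0.25, adjusted p = 0.000251). *Clu* thereby stood above every member but *Apoe* in the mean level of the Empty group.

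Genes that build and export apolipoprotein B particles were mostly lower. Of 11 tested, 6 fell and 2 rose between Empty and Normal (median -1.05), although *Apob* itself was not called. The fallen genes include *Cideb* (-1.74 ± 0.23, edgeR adjusted p = 0.000405), which lipidates VLDL, *Smlr1* (-1.78 ± 0.29, adjusted p = 0.00118) and *A1cf* (-1.82 ± 0.32, adjusted p = 0.00166), the partner of the enzyme that edits *Apob* mRNA. That enzyme, *Apobec1*, rose (1.42 ± 0.46, adjusted p = 0.0309), a call lost with the replicate block (1.32, adjusted p = 0.0544), with no filter on counts (adjusted p = 0.0524), without Empty replicate 1 or 3 and without Normal replicate 1 or 2. *Sort1*, a sorting receptor, rose by 1.97 ± 0.26 (adjusted p = 0.000372), from 2.32 to 13.2 TPM in the mean. Between UTOpiA and Normal, 5 of the 11 were lower and 2 higher, beside 6.81% and 18.2% of all tested genes.

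Among genes that remodel HDL, 3 of 9 tested fell and 2 rose between Empty and Normal (median -0.79). *Pon1*, the paraoxonase carried on HDL, fell (-2.62 ± 0.47, edgeR adjusted p = 0.0017), as did hepatic lipase, *Lipc* (-2.31 ± 0.52, adjusted p = 0.00579, and -2.98 without Empty replicate 2), and *Lcat*, which esterifies cholesterol with *Apoa1* as its cofactor (-1.16 ± 0.27, adjusted p = 0.00676). The call of *Lcat* was lost with library totals (-0.60). The phospholipid transfer protein *Pltp* rose (1.91 ± 0.19, adjusted p = 0.000119), and so did the cholesterol exporter *Abcg1* (1.503 ± 0.32, adjusted p = 0.00398).

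Of the 11 receptors, lipases and modulators of lipases reported here and tested, 3 rose between Empty and Normal, beside 20.7% of all tested genes. The receptor *Vldlr*, which binds *Apoe*, rose from 0.41 to 1.10 TPM in Normal to 3.88 to 6.07 TPM in Empty (log2 fold change 2.30 ± 0.40, edgeR adjusted p = 0.00149). *Lpl*, the lipase that *Apoc2* activates and *Apoc3* inhibits, rose from under 1 TPM in every Normal liver to 30.1 to 175 TPM in Empty (6.75 ± 0.77, adjusted p = 0.000287, and 6.16 without Empty replicate 3). Its inhibitor *Angptl4* rose as well (2.46 ± 0.61, adjusted p = 0.00981, and 1.86 without Empty replicate 1). In UTOpiA *Angptl4* held 24.3 to 57.6 TPM against 51.1 to 321 TPM in Empty, a log2 difference of -2.03 ± 0.60 that did not pass (edgeR adjusted p = 0.364) but was called by DESeq2 (adjusted p = 0.0212) and by edgeR without Empty replicate 2 (-2.49, adjusted p = 0.0455).

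Of 14 transcription regulators of these genes, 6 fell and 0 rose between Empty and Normal (median -0.94), and between UTOpiA and Normal 2 fell, where 6.81% of all tested genes did. *Cebpa* (-1.69 ± 0.32, edgeR adjusted p = 0.00226), the bile acid receptor *Nr1h4* (-1.55 ± 0.27, adjusted p = 0.00149) and *Rora* (-1.56 ± 0.36, adjusted p = 0.00594) had the largest differences without overlap. With library totals *Nr1h4* was at -0.997, and with limma on log2(TPM + 1) *Rora* was at -0.945, both short of 2-fold. Between UTOpiA and Empty 0 genes of the 5 lists were called by edgeR. The lowest p values there belonged to *Sdc1*, a remnant receptor (log2 difference 0.88 ± 0.25, edgeR adjusted p = 0.348), and *Apol3* (0.64 ± 0.19, edgeR adjusted p = 0.348). *Apoc2* differed by 0.90 ± 0.31 (edgeR adjusted p = 0.401).

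**Figure D5:**
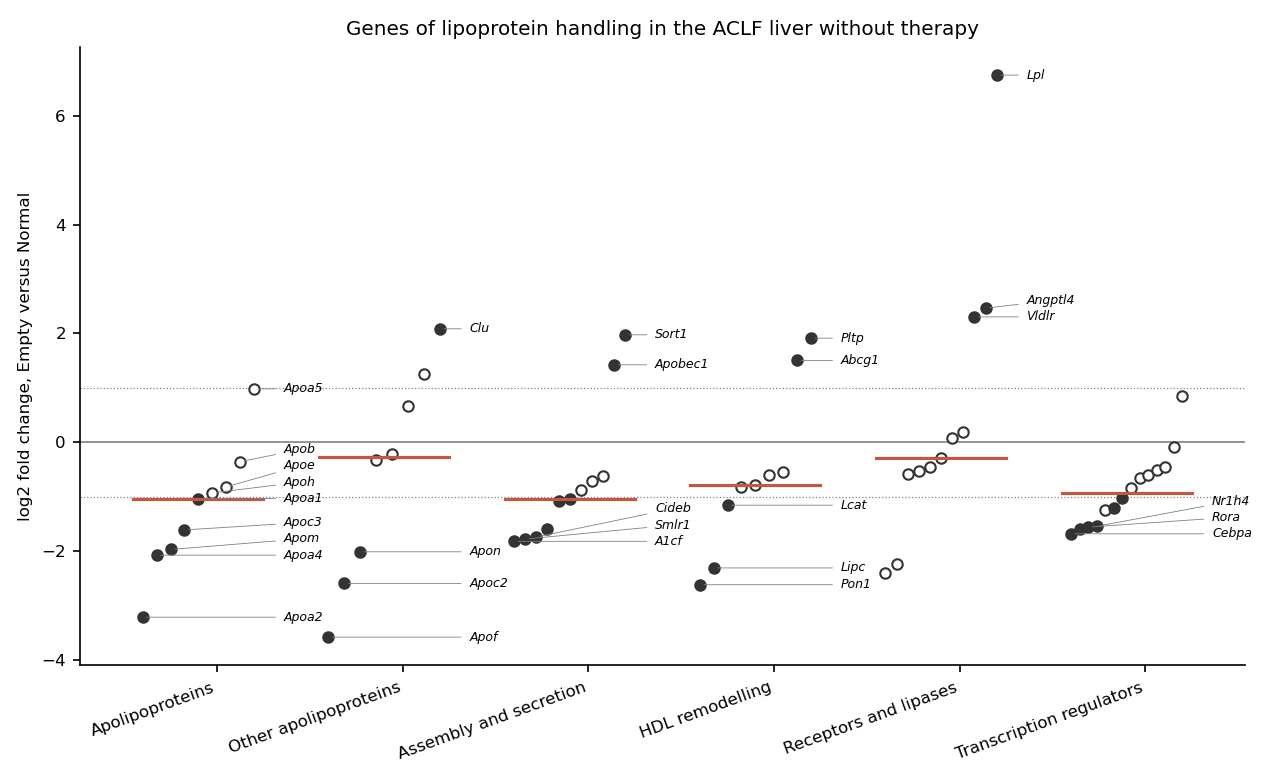
Log2 fold change between Empty and Normal (edgeR) of the tested genes of 6 lists, with filled points for genes that passed an adjusted p of 0.05 and a 2-fold change and red lines for list medians. Medians lie between -1.05 and -0.27, and Lpl is the highest point at 6.75.

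The samples were liver, and hepatocyte markers were abundant in all of them, but their levels moved with the groups. Of 10 hepatocyte markers, 4 were called lower in Empty than in Normal and 0 higher (summed level 146552 to 159136 TPM in Normal, 29341 to 54977 in Empty and 34764 to 55319 in UTOpiA). *Alb* and *Ttr* fell by 3.08 and 2.99 on the log2 scale, while *Serpina1*, *Asgr1* and *Tat* were at 0.07, -0.05 and -0.04. Of 6 cholangiocyte markers all were higher in Empty (304 to 610 TPM, against 14.5 to 24.8 in Normal), as were all 6 tested neutrophil markers (200.01 to 1167 TPM against 3.41 to 7.02), 5 of 6 stellate cell markers (843 to 1011 against 104 to 115) and 4 of 5 erythroid markers (2530 to 4047 against 109 to 312), of which the UTOpiA livers held 128 to 389, 186 to 556, 433 to 1000.2 and 837 to 1401 TPM. The other erythroid marker, *Slc4a1*, was called lower in Empty (1.65 to 4.15 TPM against 3.96 to 5.57 in Normal). Lymphocyte markers summed to 55.7 to 93.2 TPM in Empty and 10.99 to 15.3 in Normal, and endothelial markers to 66.4 to 139 and 83.5 to 93.2. Of 6 lymphocyte markers tested, 3 were called higher and 0 lower in Empty. Of 6 endothelial markers tested, 1 was called higher and 1 lower. Of 2 enterocyte markers tested, *Vil1* was called higher and *Fabp2* lower in Empty (10.6 to 26.9 TPM in all, against 22.3 to 27.7 in Normal), while *Alpi* was at 0 in every library and *Lct* and *Cdx2* had a mean of at most 0.02 TPM in Empty and 0 in Normal. In bulk tissue, fewer hepatocytes and less apolipoprotein mRNA per hepatocyte cannot be told apart, and the part of cell make-up in the members' differences was not tested.

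The genes whose profiles were most like those of the members were found by Pearson's r of log2 CPM (TMM-scaled counts) over the 9 livers, which mainly follows the step from Normal to ACLF and carries no test. For *Apoa1* these were *Adssl1*, *Hyi* and *Ivd*, a gene of leucine breakdown (r of 0.991 to 0.997), and for *Apoa2* *Gsta5*, *Slc20a2* and *Pgrmc1* (0.989 to 0.993). *Apoc3* went with *Mmp19*, *Ndufa11* and *Scp2*, the sterol carrier (0.988 to 0.994). *Apom* went with *Gpr155*, *Afmid* and *Hibadh*, the last for valine breakdown (0.993 to 0.995), and *Apoe* with *Ptgr1*, *Nit1* and *Cyp2d4* (0.986 to 0.993). For *Apoh* they were *Sdc2*, AABR07035343.1 and the vitamin K-dependent carboxylase *Ggcx* (0.981 to 0.984). *Apoa5* was most like the acute-phase gene *A2m*, with LOC100360573 and *Rpl32* (0.992 to 0.994). *Apoa4* (*Tmem64*, AABR07045632.1 and *Slc22a8*, 0.968 to 0.974) and *Apob* (*Cyp4f39*, *Plekhg3* and RGD1560854, 0.941 to 0.970) had looser matches.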

How the data were processed

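Poly(A) RNA of 9 rat livers, 3 biological replicates per group by the labels, was sequenced. The authors deposited raw counts of reads per gene and TPM for 32883 genes. The methods name HISAT2 and featureCounts on uniquely mapped reads, Cutadapt and the mouse build GRCm38, whereas the submitters' processing notes name Trimmomatic and rn6. The rat positions of the tables are given as rn6. The kit also differs between both sources, and how strand was treated in counting is not given in the sources used here. A column without a sample occurred 0 times.

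Tests on counts used edgeR 4.0.16 under R 4.3.3 (filterByExpr, TMM, all 9 libraries with 1 mean per group, robust quasi-likelihood test, two-sided, Benjamini-Hochberg over 14089 genes). DESeq2 1.42.0, limma 3.58.1 on log2(TPM + 1) and log2(TPM + 0.1), other scalings and filters, only the 6 libraries compared, a replicate block and each library left out were alternatives. The opposite-strand models, and the row with the NCBI number of Apoc1, were added after the values were seen. TPM of single members were compared by a two-sided exact permutation test. The fit was tested on simulated data. Totals of 14241172 to 17321677 counts per library make counting error small for the members, whose lowest count was 834 in a library outside Apoc1.

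The members and lists were chosen with earlier results of these data known. Named were all members; from each lipoprotein list up to 3 called genes per direction with the largest change between Empty and Normal and groups that do not overlap in TPM; up to 2 genes per list with the lowest p between UTOpiA and Empty, of which those of p under 0.02 are given; the 3 genes most like each member; and genes within 60 kb of a cluster. Saa4, Mia3, Col1a2, Pecam1 and Sis had no row under these symbols. Some genes of the lists are not reported here and were left out of the lists' counts and medians.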

Additional observations from a re-analysis of the deposited data

How the results depend on the processing

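Among the refitted log2 fold changes of the members and named genes, 1123 kept their direction and their side of the threshold, 42 lost and 15 gained a call, and 19 changed sign. The 5 members called lower between Empty and Normal became 3 with library totals, and leaving out 1 library gave 3 to 6. They became 4 with at least 10 counts in every library, under each limma fit and with only the 2 groups compared. Without the fold-change threshold, 7 members passed in either direction. The 0 called higher became 1 (Apoa5) with library totals, at least 10 counts in every library, limma on log2(TPM + 1) with or without the filter, limma on log2(TPM + 0.1), only the 2 groups compared and no fold-change threshold, and 0 to 1 without 1 library. Between UTOpiA and Normal, leaving out 1 library gave 2 to 3 lower and 0 to 1 higher. Between UTOpiA and Empty it gave 0 throughout.

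Changes of sign all concerned values that were never called. Apob between Empty and Normal was 0.18 with library totals and 0.11 under each limma fit, and between UTOpiA and Normal it ran from -0.065 to 0.27 without 1 library. Between UTOpiA and Empty, Apoa1 was -0.036 with library totals and -0.063 under each limma fit. Apoa2 was -0.0067 with library totals and ran from -0.48 to 1.21 without 1 library. Apoa5 was -0.18 with library totals, -0.12 under each limma fit and ran from -0.24 to 0.28 without 1 library. The cause was not tested.

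Counts of members with a share lower in Empty ran from 3 to 4 without 1 library, and with a share higher at 4. Between UTOpiA and Empty they ran from 0 to 1 lower and 1 to 3 higher, and 2 were higher with Apoe left out of the sum.

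The replicate numbers did not pair the samples (correlations of deviations of -0.18 to 0.06). With the replicate block, 5 members were lower and 0 higher in Empty, 2 lower and 1 higher in UTOpiA against Normal, and 0 in either direction between UTOpiA and Empty. Depth adds little counting error to the members tested.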
